A study of Mus musculus with 12 samples.

Results

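The genes of the Id family, their E protein partners and the Tal1 complex were followed across 4 genotype labels in mouse bone marrow progenitors. The 10 genes were taken by symbol from a table of 55450 genes. Their measured values are not part of the rule, but the list was drawn up with earlier results of these data known. They are Id1, Id2 and Id3, the E protein genes Tcf3, Tcf4 and Tcf12, and the Tal1 complex genes Tal1, Lyl1, Lmo2 and Ldb1. A minimum count of 10 left 14346 genes for testing, among them 9 of these 10, and Id3 was too low.

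Total RNA depleted of ribosomal RNA was sequenced from donor cells of mouse bone marrow that lacked lineage markers and carried Kit (Lin- ckit+, LK), sorted from recipients of competitive transplants. The 12 libraries comprised 3 each with the genotype labels WT, Tet2 KO (here Tet2KO), Id1 KO (Id1KO) and Tet2 KO + Id1KO (dKO). The labels give neither the strain, age or sex of the animals, nor the structure of either null allele, the time after transplantation or the number of animals pooled, and all 4 groups came through a transplant. The 3 libraries of a genotype share 1 sample number in their titles, so they may be repeats of 1 sample of cells. The p-values below measure only the spread between these libraries, and a difference between genotypes cannot be told apart from a difference between the samples of cells behind the labels.

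Id proteins have a helix-loop-helix domain but no basic region, so they pair with E proteins and keep them off DNA. E proteins (E2A from Tcf3, E2-2 from Tcf4, HEB from Tcf12) bind E-box DNA as dimers with each other or with a tissue-restricted partner such as Tal1 or its paralog Lyl1. Lmo2 bridges such a dimer to a Gata factor, and Ldb1 holds the assembly together and joins distant sites. In marrow progenitors E proteins are known for lymphoid priming, and the Tal1 complex for stem cell, erythroid and megakaryocyte programmes.

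Sequence before the transcription start is shown for 3 genes of the complex, chosen because Tal1 and Ldb1 were both called lower in Tet2KO than in WT and higher in dKO than in Tet2KO, while Lyl1 was called in no contrast. Each run is the 250 bases upstream of a RefSeq start on GRCm38.p6, read 5′ to 3′ on the gene's strand. Capitals mark 3 motifs, each searched on both strands. The E-box, which basic helix-loop-helix dimers bind, was spelled CANNTG. The core of Gata factor sites was spelled GATAA. The GC box, which Sp factors bind, was spelled GGGCGG. The windows are chr4:115056176-115056425 and chr4:115057561-115057810 for the first and second Tal1 start, both on the plus strand, chr8:84701207-84701456 on the plus strand for Lyl1, and chr19:46037071-46037320 on the minus strand for the third Ldb1 start. Where a gene has several starts, both of Tal1 are shown and of Ldb1 the start whose window holds a GATAA. Of the windows counted below, the 2 with a GATAA are thus both printed. None of the 4 windows overlaps an annotated exon of any gene.
Tal1 start 1: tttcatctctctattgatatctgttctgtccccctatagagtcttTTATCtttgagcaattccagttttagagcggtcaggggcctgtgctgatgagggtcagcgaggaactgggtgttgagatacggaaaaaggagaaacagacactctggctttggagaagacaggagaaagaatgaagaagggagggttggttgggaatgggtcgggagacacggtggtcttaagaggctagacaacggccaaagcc
Tal1 start 2: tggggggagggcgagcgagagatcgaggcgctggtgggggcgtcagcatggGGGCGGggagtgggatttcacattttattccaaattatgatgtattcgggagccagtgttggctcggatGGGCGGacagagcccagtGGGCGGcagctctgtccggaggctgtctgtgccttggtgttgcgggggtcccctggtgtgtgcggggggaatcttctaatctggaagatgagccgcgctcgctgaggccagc
Lyl1: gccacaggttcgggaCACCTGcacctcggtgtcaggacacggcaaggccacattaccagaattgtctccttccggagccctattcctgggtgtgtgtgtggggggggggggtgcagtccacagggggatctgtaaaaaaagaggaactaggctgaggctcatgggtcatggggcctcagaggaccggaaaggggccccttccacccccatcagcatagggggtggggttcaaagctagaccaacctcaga
Ldb1 start 3: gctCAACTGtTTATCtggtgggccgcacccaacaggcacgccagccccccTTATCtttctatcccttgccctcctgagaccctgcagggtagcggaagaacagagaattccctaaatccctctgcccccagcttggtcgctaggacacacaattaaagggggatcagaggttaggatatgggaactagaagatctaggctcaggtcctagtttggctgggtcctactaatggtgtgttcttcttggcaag

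The first Tal1 window holds 1 GATAA match, which begins at position -205 from the start, and no E-box. The second Tal1 window holds 3 GC boxes and neither of the other motifs. Lyl1 has 1 E-box at -235. The third Ldb1 window has 1 E-box at -247 and 2 GATAA matches, the first at -240. The windows of the first and second Ldb1 starts hold neither of these motifs and 1 and 4 GC boxes. Windows of 7 of the 10 genes were counted, 12 in all. Starts on chr18, where Tcf4 lies, were left out, and none was listed for Id1 and Lmo2. An E-box was found in 6 of the 12, a GATAA in 2 and a GC box in 8. Annotated exons cover all 250 bases of the Id3 window and of the third Tcf12 window. They cover 161 bases of the Id2 window, 12 of the Tcf3 window, and 52 and 1 of the first and second Tcf12 windows. Among 32851 windows of the same length at all listed starts, 66.2% held an E-box, 22.6% a GATAA and 32.7% a GC box. These matches are letters in a window, and binding was not measured.

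Each library held between 15706407 and 19959183 estimated counts. Levels are given below as CPM, counts scaled to a common library size after TMM normalization. Markers of the sort were present in all 12 libraries, with Kit between 314 and 377 CPM, Cd34 between 279 and 370 CPM and Mpo between 8020 and 11300 CPM. Neither ablated gene was low under its own null label. Tet2 was at 99.3 ± 2.2 CPM (WT), 130 ± 2.5 (Tet2KO), 92 ± 1.5 (Id1KO) and 118 ± 3.1 (dKO) (SD, n = 3 each). Id1 is given in full below. RNA counted over the whole of each targeted gene was thus not reduced under its null label. Since the structure of either null allele is not given, these counts cannot decide whether the labels hold. Every genotype name and direction below refers to the libraries labelled so. Libraries of 1 genotype differed from each other by a chi-square of 1.52 to 3.5 per degree of freedom in 8 pairs, and by 4.18 to 5.35 in the 4 pairs that include WT library 1 or dKO library 2, which stand somewhat apart. Pairs from different genotypes gave 9.17 to 23.99. Without WT library 1 the call of Tcf12 in Tet2KO against WT was lost, without dKO library 2 that of Tcf12 in dKO against Id1KO was lost and calls of Tcf3 and Tal1 were gained, as given below, and the other calls on the 10 genes were kept.

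In Tet2KO against WT, 6 of the 9 tested genes passed the test (edgeR quasi-likelihood, Benjamini-Hochberg adjusted p below 0.05 over all genes tested). Id1, Tcf4 and Tcf12 rose, and Tal1, Ldb1 and Lmo2 fell. Of all genes tested, 32.8% passed in this comparison, 16.6% higher and 16.2% lower. In dKO against Id1KO, 3 of the 9 passed, with Tcf4 and Tcf12 higher and Tal1 lower, beside 19.3% of all genes, 10.6% higher and 8.7% lower. With the libraries of a genotype summed to 1 sample, the edgeR fit has 4 samples, too few to decide how many of the 9 differ. Its log2 values for the Tet2 labels were 0.63 (Id1), 0.19 (Tcf4), 0.11 (Tcf12), -0.18 (Tal1), -0.12 (Ldb1) and -0.06 (Lmo2). The changes were small for genes other than Id1: the median absolute log2 difference of the 9 was 0.11 for Tet2KO over WT and 0.07 for dKO over Id1KO, beside 0.13 and 0.10 for all genes tested. In bulk RNA, fewer cells of a type and less RNA per cell cannot be told apart.

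For the Id1 labels, Id1 and Tal1 were higher in Id1KO than in WT and were the 2 of the 9 that passed, while 15% of all genes passed, 7.26% higher and 7.77% lower. The 2 that passed in dKO against Tet2KO were Tal1 and Ldb1, both higher in dKO, beside 26.4% of all genes, 13.1% higher and 13.4% lower. In dKO against WT 3 passed, with Id1 and Tcf12 higher and Lmo2 lower, beside 19.2% of all genes, 10.2% higher and 8.97% lower. The interaction asks whether the step from Tet2KO to dKO differs from the step from WT to Id1KO. Of the 9 genes it passed for Id1 alone, with a negative sign, beside 14.5% of all genes, 7.46% positive and 7.03% negative. The comparisons share libraries, so their counts are not independent of each other.

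**Figure D1:**
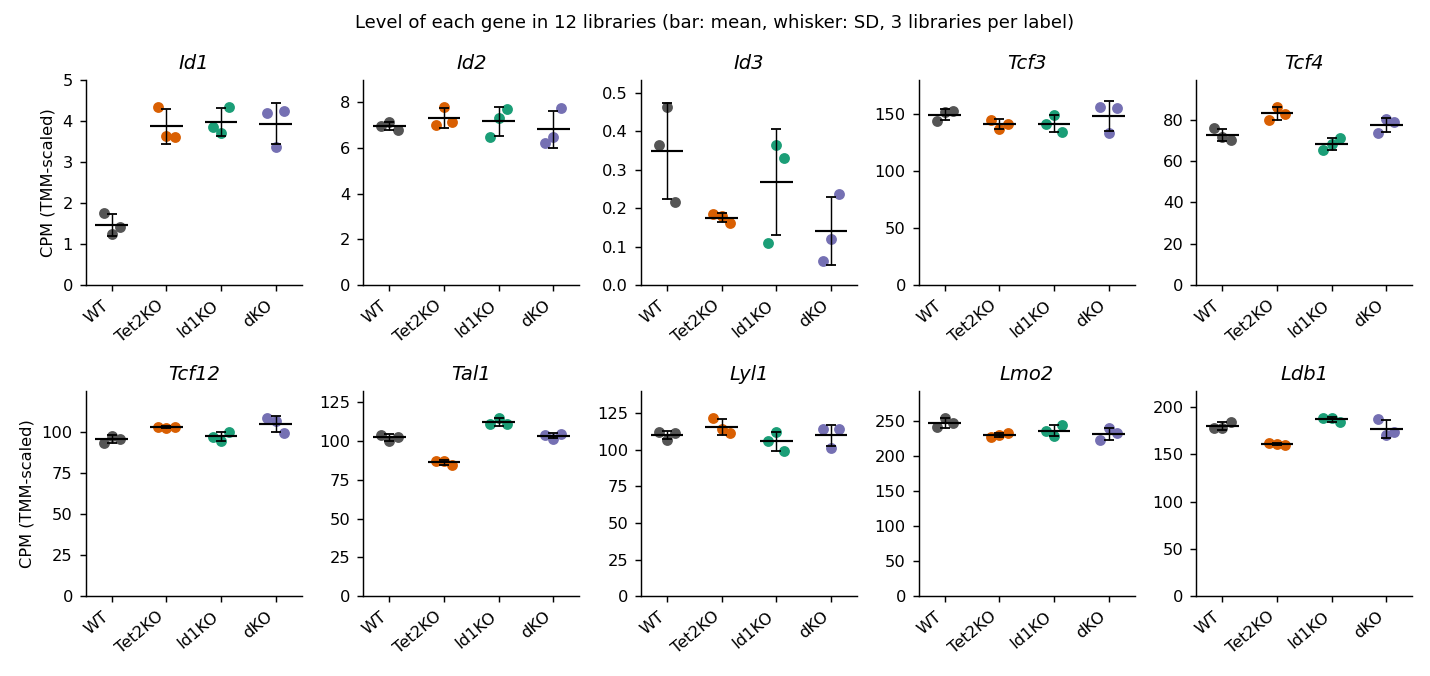
Level of each of the 10 genes in CPM (TMM-scaled) in 12 libraries, by genotype label; dots are libraries, horizontal bars the means and whiskers the SD of 3 libraries. Id1 sits between 1.24 and 1.76 in WT and at 3.35 or above in the other 9 libraries, and Tal1 sits lowest in Tet2KO, at 84.3 to 87.3.

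Id1 (chr2:152736251-152737410, plus strand) was the gene of the set that differed most between labels, and it was lowest in WT, not under the Id1-null labels. In WT it was at 1.76, 1.24 and 1.41 CPM. In Tet2KO it was at 4.35, 3.63 and 3.61 CPM, in Id1KO at 3.84, 3.69 and 4.35, and in dKO at 4.18, 3.35 and 4.25. All 9 libraries with a null label lay above all 3 WT libraries, and the 3 null labels overlapped each other. These levels rest on 24 to 34 counts per WT library and 56 to 79 in each of the others.

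Against WT, Id1 was 2.62-fold higher in Tet2KO (log2 1.39 ± 0.17 SE, edgeR adjusted p = 3.66e-06), 2.69-fold higher in Id1KO (1.43 ± 0.17, 8.11e-06) and 2.67-fold higher in dKO (1.41 ± 0.17, 6.08e-06). With the 3 libraries of a genotype summed to 1 sample, which allows only additive label effects, Id1 was at log2 0.63 for the Tet2 labels (edgeR adjusted p = 0.393) and 0.68 for the Id1 labels (0.519), and neither passed. With all 12 libraries it did not pass in dKO against Tet2KO (log2 0.03 ± 0.15, edgeR adjusted p = 0.921) or in dKO against Id1KO (-0.01 ± 0.15, 0.972). The interaction was -1.40 ± 0.23 (edgeR adjusted p = 0.000301). The ratio of its highest to its lowest genotype mean was 2.69. A ratio at or above that was seen in 2.04% of all genes tested, whose median ratio was 1.18.

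Id2 (chr12:25093799-25097140, minus strand) was nearly level. It averaged 6.94 ± 0.18 CPM (WT), 7.3 ± 0.44 (Tet2KO), 7.16 ± 0.62 (Id1KO) and 6.81 ± 0.82 (dKO) (SD, n = 3 each), the groups overlapped, and no contrast passed. Its log2 differences lay between -0.10 and 0.07 in the pairwise contrasts, each with an SE of 0.11. Id3 (chr4:136143497-136145755, plus strand) had 1 to 9 counts per library. Summed over 3 libraries its counts were 20 (WT), 9 (Tet2KO), 15 (Id1KO) and 7 (dKO). The corresponding levels, with exact 95% Poisson intervals for counting error only, were 0.35 CPM (0.214 to 0.54) in WT, 0.174 (0.0796 to 0.331) in Tet2KO, 0.27 (0.151 to 0.445) in Id1KO and 0.142 (0.057 to 0.292) in dKO. All 3 Tet2KO libraries (0.162 to 0.184 CPM) lay below all 3 WT libraries (0.216 to 0.464 CPM), on 3 counts each against 4 to 9, while Id1KO and dKO overlapped WT. Id3 was under the filter on low counts, and its differences were not tested. The remaining family gene, Id4, had at most 1 count in any library.

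**Figure D2:**
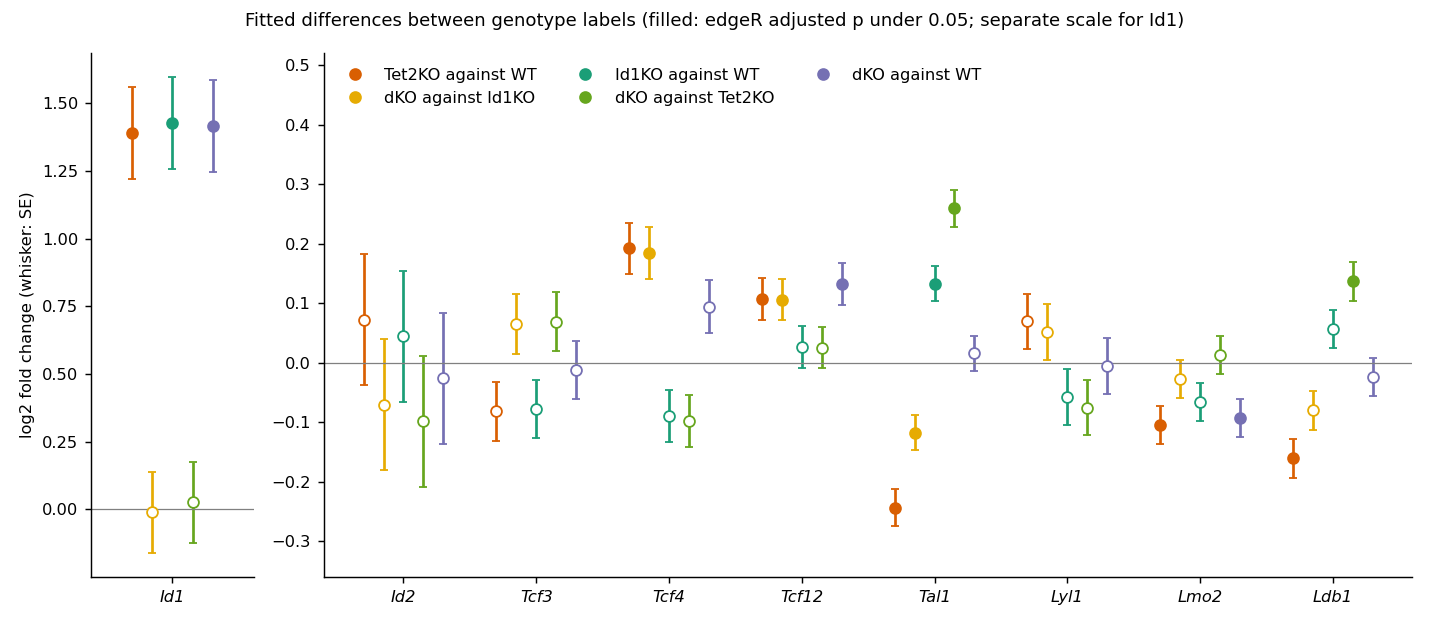
Fitted log2 fold change (whisker: SE) of the 9 tested genes in 5 pairwise contrasts, with a separate vertical scale for Id1; filled points passed the edgeR test at an adjusted p of 0.05 and open points did not. Id1 is at 1.39 to 1.43 in the 3 contrasts against WT, and Tal1 runs from -0.24 in Tet2KO against WT to 0.26 in dKO against Tet2KO.

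The RNA of the Id genes was set against that of the E proteins on a per-length scale (CPM per kb of exonic length), since genes can be compared only per length. The 3 Id genes summed to 4.31 ± 0.24 CPM per kb for WT, 6.42 ± 0.3 for Tet2KO, 6.5 ± 0.54 for Id1KO and 6.26 ± 0.68 for dKO. The 3 E protein genes summed to 45.8 ± 1.3, 44.7 ± 0.94, 43.8 ± 1.7 and 46.3 ± 3.1 CPM per kb in the same order. The Id sum divided by the E protein sum was 0.103, 0.091 and 0.0881 in the WT libraries, 0.148, 0.147 and 0.137 in Tet2KO, 0.138, 0.14 and 0.168 in Id1KO, and 0.128, 0.131 and 0.146 in dKO. Every library with a null label was above every WT library, and the 3 null labels overlapped.

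E protein RNA exceeded Id RNA by 10.7 ± 0.87 times in WT and by 6.96 ± 0.31, 6.78 ± 0.72 and 7.43 ± 0.52 times in Tet2KO, Id1KO and dKO. Id1 made up 29.3% ± 4.1 of the Id sum in WT and 51.8% ± 3.7, 52.6% ± 2.5 and 54.1% ± 3.6 in Tet2KO, Id1KO and dKO. Without Id1 the ratio was 0.0663, 0.0693, 0.0705 and 0.0621 in WT, Tet2KO, Id1KO and dKO. The ratio concerns RNA per length, was not tested, and depends on the length used: with the longest transcript of each gene it was 0.0682, 0.0971, 0.102 and 0.0915.

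**Figure D3:**
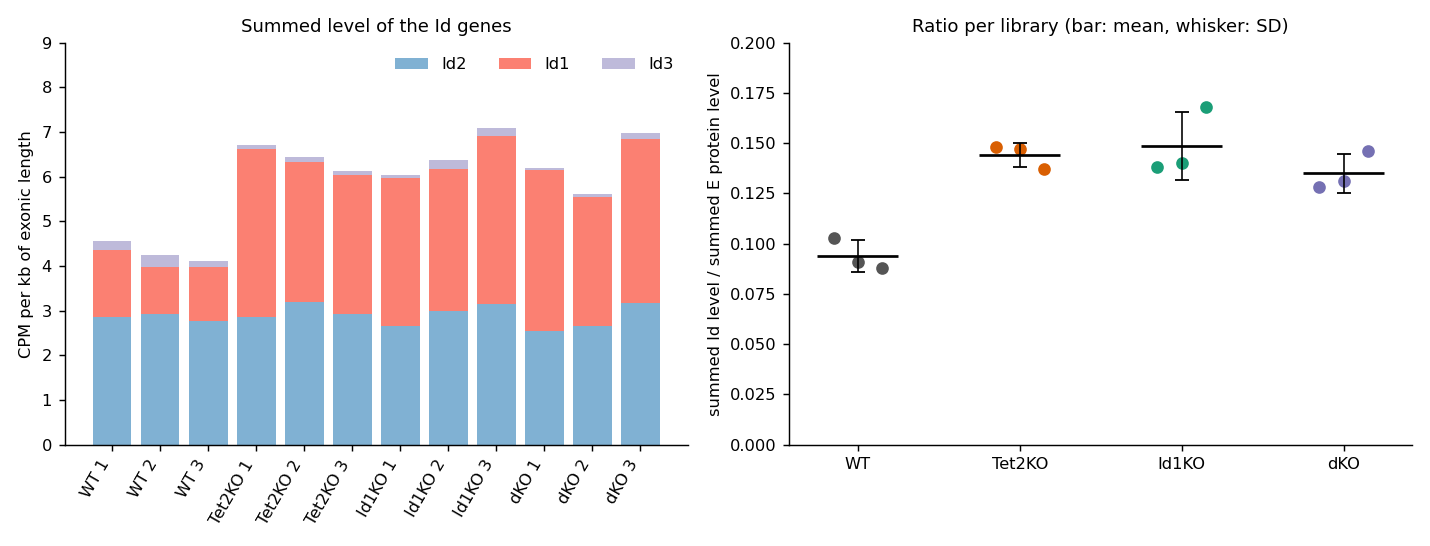
Left, level of Id2, Id1 and Id3 stacked in each of 12 libraries, in CPM per kb of exonic length; right, the Id sum divided by the sum of Tcf3, Tcf4 and Tcf12 per library, with mean and SD of 3 libraries. Id2 is about level across libraries and the WT libraries are lowest, with ratios of 0.0881 to 0.103.

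Of the E protein genes, Tcf4 and Tcf12 were higher under the Tet2-null labels, and Tcf3 was not called. Tcf4 (chr18:69343356-69689079, plus strand) was at 76.1, 71.5 and 70.4 CPM in WT and at 79.9, 86.4 and 82.8 in Tet2KO. It was at 65.3, 68.2 and 71.3 CPM in Id1KO and at 73.7, 80.2 and 78.7 in dKO. The libraries of Tet2KO and WT did not overlap, nor did those of dKO and Id1KO. Tcf4 rose by 14.3% in Tet2KO against WT (log2 0.19 ± 0.043 SE, edgeR adjusted p = 0.00174) and by 13.6% in dKO against Id1KO (0.18 ± 0.044, 0.00521). The interaction of Tcf4 was -0.01 ± 0.061 (edgeR adjusted p = 0.95). The 12 markers of monocytes and dendritic cells, none at 0, summed to 2030 to 2100 CPM in the WT libraries, 2320 to 2370 in those of Tet2KO, 1840 to 1850 in those of Id1KO and 2260 to 2300 in those of dKO. This is the order of the genotype means of Tcf4. The summed endothelial and stromal markers had that order too, with means of 166, 199, 151 and 169 CPM (WT, Tet2KO, Id1KO and dKO). Of these 12 markers only 6 passed the filter on low counts, and Dcn was at 0 in all libraries. In Tet2KO against WT 2 of the 6 rose and 0 fell, beside 16.6% and 16.2% of all genes. Of the 11 monocyte and dendritic markers tested, 6 rose and 2 fell in Tet2KO against WT, beside 16.6% and 16.2% of all genes. The part of either set of cells in the Tcf4 values was not tested.

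Tcf12 (chr9:71842688-72111871, minus strand) was at 92.8, 97.6 and 95.5 CPM in WT, 103, 102 and 103 in Tet2KO, 96.9, 94.6 and 99.8 in Id1KO, and 108, 106 and 99.2 in dKO. Tet2KO and dKO libraries lay above all WT libraries, while 1 dKO library lay within the Id1KO range. It rose by 7.68% in Tet2KO against WT (log2 0.11 ± 0.035 SE, edgeR adjusted p = 0.0231), by 7.64% in dKO against Id1KO (0.11 ± 0.035, 0.0385) and by 9.6% in dKO against WT (0.13 ± 0.035, 0.0107). These calls are fragile. The first was lost with DESeq2 (0.0801), with no filter on low counts (0.0515) and without WT library 1, Tet2KO library 1 or Tet2KO library 3 (0.0779, 0.0616 and 0.0565). The second was lost with DESeq2 (0.153), with no filter (0.0521), with only the libraries compared (0.0767) and without WT library 3 (0.0506), Tet2KO library 3 (0.0502), Id1KO library 1 (0.0988), Id1KO library 2 (0.158), dKO library 1 (0.173) or dKO library 2 (0.101). The last was lost without dKO library 1 (0.0543). Of its exonic bases, 107 bp match Gm34885 at 96.3% identity.

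Tcf3 (chr10:80409514-80433647, minus strand) was at 150 ± 5.1 CPM (WT), 141 ± 4.1 (Tet2KO), 142 ± 7.7 (Id1KO) and 148 ± 13 (dKO) (SD, n = 3 each), with overlapping libraries. Its log2 differences lay between -0.08 and 0.07 in the pairwise contrasts and none passed. Without dKO library 2, one of the 2 libraries that stand apart, Tcf3 was called higher in dKO than in Tet2KO (log2 0.14, edgeR adjusted p = 0.0186) and than in Id1KO (0.14, 0.0243), and its interaction was 0.21 (0.0119). With no filter on low counts it was called in Tet2KO against WT (-0.09, 0.0328) and in the interaction (0.15, 0.0197). Tcf3 supplied 80.8% ± 0.51 of the E protein sum per length in WT and 78.4% ± 0.64 in Tet2KO (SD, n = 3 each), a share that was not tested. That share depends on the length used. Per kb of exonic length, Tcf3, Tcf12 and Tcf4 averaged 36, 6.43 and 2.75 CPM over 12 libraries. With the longest transcript of each they averaged 49.3, 15.9 and 8.79, which gives Tcf3 a smaller share.

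Tal1 and its paralog Lyl1 encode the tissue-restricted partners of the E proteins, and Tal1 was called in 4 contrasts and Lyl1 in no contrast. Tal1 (chr4:115056426-115071755, plus strand) was at 103.9, 100 and 102.4 CPM in WT and at 87.2, 87.3 and 84.3 in Tet2KO. It was at 110.6, 114.7 and 110.5 CPM in Id1KO and at 104.0, 101.4 and 104.3 in dKO. Tet2KO lay below every other library and Id1KO above every other library, while dKO overlapped WT.

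Tal1 fell by 15.5% in Tet2KO against WT (log2 -0.24 ± 0.031 SE, edgeR adjusted p = 4.77e-06) and fell by 7.82% in dKO against Id1KO (-0.12 ± 0.03, 0.0088). It rose by 9.66% in Id1KO against WT (0.13 ± 0.03, 0.00436) and by 19.7% in dKO against Tet2KO (0.26 ± 0.031, 4.76e-06). Its interaction, 0.13 ± 0.043, missed the threshold (edgeR adjusted p = 0.0564). It passed without Id1KO library 2 (0.0434) or without dKO library 2 (0.0489), and it did not without any other single library.

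Lyl1 (chr8:84701457-84704715, plus strand) averaged 110 ± 2.9 CPM (WT), 116 ± 5.3 (Tet2KO), 106 ± 6.4 (Id1KO) and 110 ± 7.2 (dKO) (SD, n = 3 each). The groups overlapped and no contrast passed, with log2 differences from -0.08 to 0.07. The ratio of Tal1 to Lyl1 per length within a library was 0.381 ± 0.0037 (WT), 0.307 ± 0.011 (Tet2KO), 0.436 ± 0.019 (Id1KO) and 0.388 ± 0.02 (dKO). All Tet2KO libraries (0.295 to 0.315) were below all WT libraries (0.378 to 0.385), and all Id1KO libraries (0.421 to 0.458) were above the dKO libraries (0.375 to 0.411). Of the windows printed above, that of Lyl1 holds an E-box, the first of Tal1 a GATAA and the second of Tal1 neither. That of the third Ldb1 start, chosen for its GATAA, holds both, and the windows of the other Ldb1 starts hold neither. A link between these motifs and the levels was not tested.

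The bridging and scaffold genes were lower in Tet2KO than in WT as well. Ldb1 (chr19:46031570-46045214, minus strand) was at 178, 178 and 185 CPM in WT, 163, 161 and 160 in Tet2KO, 189, 188 and 184 in Id1KO, and 188, 170 and 173 in dKO. Tet2KO lay below every other library. Ldb1 fell by 10.5% in Tet2KO against WT (log2 -0.16 ± 0.033 SE, edgeR adjusted p = 0.000753) and was 9.94% higher in dKO than in Tet2KO (0.14 ± 0.033, 0.00419). In dKO against Id1KO it was at -0.08 ± 0.032 (0.0909), and it passed without dKO library 1 (-0.12, 0.00876). Pprc1 lies on the other strand and has 177 exonic bp in common with Ldb1. Whether counting used strand is not given in the sources used here. Pprc1 was itself 14.3% higher in dKO than in Tet2KO (edgeR adjusted p = 0.0125) and did not pass in Tet2KO against WT (0.412), and its part in the Ldb1 values was not tested.

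Lmo2 (chr2:103957986-103981878, plus strand), the most abundant of the 10 genes, was at 242, 255 and 247 CPM in WT, 228, 230 and 234 in Tet2KO, 237, 229 and 245 in Id1KO, and 224, 241 and 233 in dKO. All Tet2KO and dKO libraries lay below all WT libraries, the highest dKO library only narrowly, and 1 Id1KO library lay within the WT range. Lmo2 fell by 7.03% in Tet2KO against WT (log2 -0.11 ± 0.032 SE, edgeR adjusted p = 0.0155) and fell by 6.2% in dKO against WT (-0.09 ± 0.032, 0.0491). The first call was lost without WT library 2, Tet2KO library 1 or Tet2KO library 2 (adjusted p 0.106, 0.06 and 0.06). The second was lost with DESeq2 (0.0772), with only the libraries compared (0.0791) and without WT library 2 (0.221) or 3 (0.113), Tet2KO library 1 (0.0597), 2 (0.0747) or 3 (0.0706), Id1KO library 1 (0.0745) or dKO library 1 (0.237) or 3 (0.115).

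**Figure D4:**
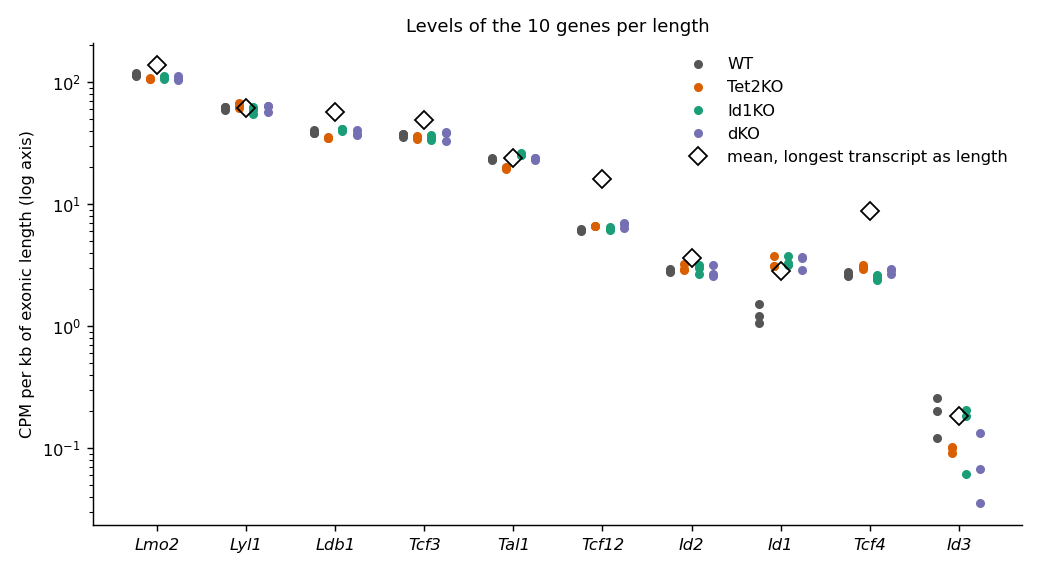
Level of the 10 genes per kb of exonic length (log axis) in 12 libraries, coloured by genotype label and ordered by mean; open diamonds give the mean with the longest transcript as length. Lmo2 is highest at 109 CPM per kb and Id3 lowest at 0.13, and the diamond of Tcf4 lies well above its dots.

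Per kb of exonic length, averaged over 12 libraries, the order was Lmo2 at 109 ± 4.2 CPM per kb (SD over libraries), Lyl1 at 61.2 ± 3.4, Ldb1 at 38.3 ± 2.4, Tcf3 at 36 ± 2, Tal1 at 23 ± 2.2, Tcf12 at 6.43 ± 0.3, Id2 at 2.89 ± 0.21, Id1 at 2.85 ± 1, Tcf4 at 2.75 ± 0.23 and Id3 at 0.13 ± 0.068. The library ranges of Ldb1 and Tcf3 overlapped, as did those of Id2 and Id1 and of Id1 and Tcf4. The other neighbours in the order had separate ranges. Lyl1 RNA exceeded Tal1 RNA per length in every genotype. The places of Id2, Id1 and Tcf4 changed with the label, since Id1 did. In WT, Id2 was at 2.85 ± 0.074 CPM per kb, Tcf4 at 2.65 ± 0.11 and Id1 at 1.27 ± 0.23 (SD, n = 3 each). Under the null labels Id1 averaged 3.33 to 3.42 CPM per kb, above Id2 at 2.79 to 2.99 and Tcf4 at 2.49 to 3.03. The low place of Tcf4 depends on its many exons, which merge to 27382 bp. With its longest transcript of 8577 bp it came to 8.79 CPM per kb and to rank 7, above both Id1 and Id2, and Tcf12 came to 15.9.

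The partners of the complex were taken from a list of 23 genes, of which 22 were tested and Ldb2, a relative of Ldb1, was at 0 in all libraries. In Tet2KO against WT, 5 partners rose and 7 fell, where 16.6% and 16.2% of all genes did, with a median log2 difference of 0.04 beside -0.00 for all genes tested. The partners named in this and the following paragraphs, other than Runx1, Cbfb and Irf2bp2, were picked after their values were seen. Those that fell include erythroid regulators that bind with or beside the complex. Gata1, the Gata factor of red cell and platelet precursors, fell from 51.6 ± 0.56 to 31 ± 1.3 CPM (log2 -0.73 ± 0.043 SE, edgeR adjusted p = 1.07e-10). Klf1, the erythroid Krüppel-like factor, fell from 71 ± 2.5 to 40.7 ± 0.68 CPM (-0.80, 1.27e-11), and the repressor gene Gfi1b from 61.4 ± 3.2 to 33.2 ± 0.91 (-0.89, 1.65e-11). Zfpm1, which encodes the Gata1 cofactor Fog1, fell by 22.3% (edgeR adjusted p = 1.05e-06), and Gata2 fell by 15.3% (0.000499).

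Partners that rose in Tet2KO included Runx1, a master regulator of blood formation, which went from 141 ± 5 to 167 ± 2.3 CPM (18.5% higher, edgeR adjusted p = 3.02e-06). Its cofactor gene Cbfb rose by 11.1% (0.00116), and the corepressor gene Cbfa2t3 by 37.1% (8.21e-06). Irf2bp2, the most abundant partner, averaged 382 ± 5.1 (WT) and 397 ± 1 CPM (Tet2KO) and did not pass (0.0814).

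In dKO against Tet2KO, 5 partners rose and 3 fell, where 13.1% and 13.4% of all genes did. Gata1 rose by 59% to 49.4 ± 0.58 CPM (edgeR adjusted p = 8.25e-10), Klf1 by 65.6% (1.12e-10), Gfi1b by 70.5% (3.18e-10), Zfpm1 by 33.3% (4.06e-07) and Ssbp3, which encodes a protein that stabilises Ldb1, by 16.7% (0.000703). The interaction was positive for these 5 and negative for 4 others, Gata2, Lmo4, Cbfb and Fli1, beside 7.46% and 7.03% of all genes. In Id1KO against WT 6 partners rose and 2 fell, where 7.26% and 7.77% of all genes did. The 6 became 3 without WT library 2, WT library 3 or Id1KO library 2 and with DESeq2. The total fell as well with DESeq2, which called 1220 genes in all in this contrast, beside 2156 with edgeR. The 2 became 1 without WT library 1 or Id1KO library 1. In dKO against Id1KO 3 rose and 4 fell, beside 10.6% and 8.7% of all genes. In dKO against WT 3 rose and 3 fell, beside 10.2% and 8.97%. Gata2 was at 80.5 ± 7.2 CPM (WT), 68.2 ± 0.91 (Tet2KO), 93.9 ± 1 (Id1KO) and 69.1 ± 1.1 (dKO). It was lower in dKO than in WT (log2 -0.22 ± 0.047 SE, edgeR adjusted p = 0.00206).

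**Figure D5:**
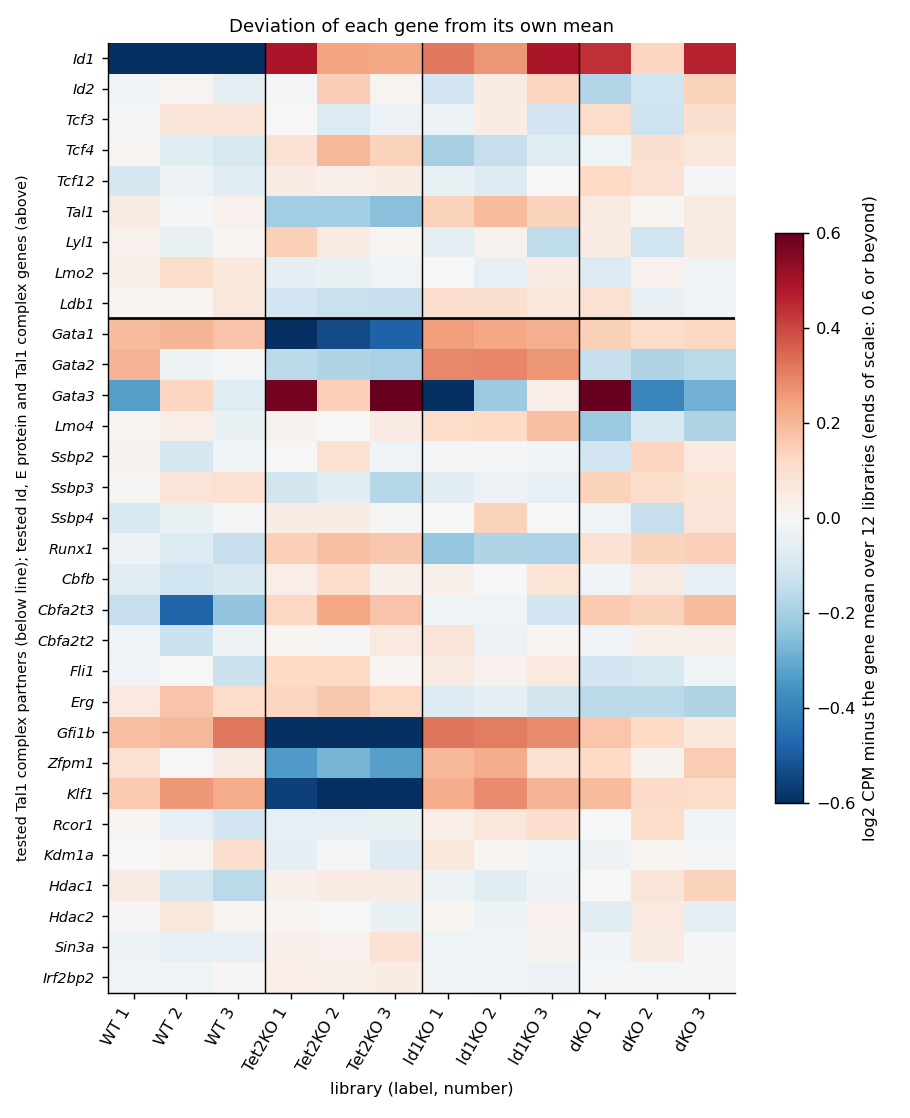
Deviation of log2 CPM from the gene's mean over 12 libraries for the 9 tested genes (above the line) and the 22 tested Tal1 complex partners (below), with 1 column per library; colours end at 0.6 in either direction. Gata1, Gfi1b, Zfpm1 and Klf1 are low in the 3 Tet2KO libraries, as is Tal1 to a smaller degree, and Id1 is low in the 3 WT libraries.

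Genes known as targets of Tal1 and Gata1 were largely lower in Tet2KO. Of 22 tested, 17 fell and 3 rose, beside 16.2% and 16.6% of all genes, with a median log2 difference of -0.75. In dKO against Tet2KO, 16 rose and 2 fell, beside 13.1% and 13.4% of all genes, with a median of 0.75. Rhd, a red cell surface gene, fell from 39.4 ± 2.6 to 19.5 ± 0.96 CPM in Tet2KO against WT (edgeR adjusted p = 1.02e-10), and Epb42, which encodes a membrane skeleton protein, from 5.01 ± 0.45 to 2.47 ± 0.24 (4.43e-05). Tfrc, the transferrin receptor gene, fell by 19.3% in Tet2KO and was 34.4% higher in Id1KO than in WT (9.84e-09).

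Slc4a1, which encodes the anion exchanger of the red cell, was at 0.84 ± 0.058 CPM in WT, 0.363 ± 0.11 in Tet2KO and 1.51 ± 0.39 in dKO, and it passed in both steps (edgeR adjusted p = 0.0184 and 0.000158). These levels rest on few counts, at most 33 in any library. The globin genes Hbb-bs, Hbb-bt, Hba-a1 and Hba-a2 were called lower in Tet2KO and higher in dKO than in WT, for example Hbb-bs at 7.53 ± 0.51 CPM in WT and 14 ± 1.4 in dKO. Values of single globin genes are uncertain, as the copies are nearly identical. Myb fell by 7.01% in Tet2KO (0.00194), and Kit rose by 8.11% (0.00236). Of the same 22 target genes, 8 rose and 7 fell in dKO against Id1KO, beside 10.6% and 8.7% of all genes. In Id1KO against WT 2 rose and 2 fell, beside 7.26% and 7.77%. In dKO against WT 9 rose and 4 fell, beside 10.2% and 8.97%. The interaction was positive for 14, beside 7.46% of all genes.

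Of the 23 target genes, 13 are also in the list of erythroid markers. All 20 erythroid markers were tested. In Tet2KO against WT 19 of them fell, beside 16.2% of all genes, and in dKO against Tet2KO 19 rose, beside 13.1%. Klf1 is also in the list of partners, and the lists of partners and targets share 3 genes, Gfi1b, Klf1 and Runx1. The erythroid markers summed to 1820 to 1870 CPM for WT, 1080 to 1090 for Tet2KO, 2010 to 2040 for Id1KO and 1830 to 1860 for dKO. No marker was at 0. The means of Tal1 and Ldb1, like this sum, were lowest in Tet2KO and highest in Id1KO. The part of erythroid cell content in the values of Tal1, Ldb1 and their partners was not tested. The summed megakaryocyte markers were at 159 to 166 CPM for WT, 165 to 174 for Tet2KO, 225 to 239 for Id1KO and 165 to 181 for dKO. Of 8 tested, 3 were higher in Id1KO than in WT, beside 7.26% of all genes.

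Genes that E proteins are known to regulate, mostly lymphoid genes and CDK inhibitors, were more often higher than lower in Tet2KO. Of 21 tested, 10 rose and 1 fell, beside 16.6% and 16.2% of all genes, with a median log2 difference of 0.32. In dKO against Tet2KO 8 fell, beside 13.4% of all genes, with a median of -0.19. Cxcr4, the receptor that holds progenitors in marrow, was at 136 ± 3.7 CPM (WT), 171 ± 5.8 (Tet2KO), 137 ± 1.6 (Id1KO) and 151 ± 1.8 (dKO). Notch1 was at 102 ± 2.4, 138 ± 2.1, 98.4 ± 5.8 and 121 ± 4 CPM in the same order. Flt3, a receptor gene of lymphoid-primed progenitors, was at 68.9 ± 0.8, 99.4 ± 0.94, 62.8 ± 3 and 73.3 ± 2.1 CPM. All 3 rose in Tet2KO against WT (edgeR adjusted p = 5.58e-08, 3.7e-08 and 8.54e-10) and fell in dKO against Tet2KO (0.000129, 0.000814 and 2.51e-08).

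Socs3, a feedback inhibitor of cytokine signalling, was at 1.89 ± 0.33 CPM (WT), 3.58 ± 0.21 (Tet2KO), 5.63 ± 0.58 (Id1KO) and 4.21 ± 0.13 (dKO), with a negative interaction (log2 -1.34 ± 0.2, edgeR adjusted p = 0.000147). Like Id1, it was lowest in WT. In Id1KO against WT 4 genes of this list rose and 2 fell, beside 7.26% and 7.77% of all genes. In dKO against Id1KO 4 rose and 3 fell, beside 10.6% and 8.7%. In dKO against WT 5 rose and 2 fell, beside 10.2% and 8.97%. The list shares 7 of its 27 genes with the B lymphoid markers. Those markers summed to 32.9 to 34.9 CPM for WT, 41.5 to 43.1 for Tet2KO, 29.7 to 33.4 for Id1KO and 28.9 to 33.6 for dKO, none was at 0, and their part in the result was not tested.

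The BMP and TGF-beta pathway, whose Smad proteins are known inducers of Id genes, was followed through 24 genes, of which 18 were tested. In Tet2KO against WT 11 rose, beside 16.6% of all genes, with a median log2 difference of 0.20. In dKO against Tet2KO 10 fell, beside 13.4% of all genes, with a median of -0.18. The interaction was negative for 5, beside 7.03% of all genes. Smurf1 and Smurf2, which encode antagonists of the pathway, are among both the 11 and the 10. Egr1, a gene outside the pathway, is among the 10. All 3 were named after their values were seen. Tgfb1 was at 123 ± 9 CPM (WT), 140 ± 3 (Tet2KO), 127 ± 7.3 (Id1KO) and 136 ± 1.9 (dKO) and rose by 13.1% in Tet2KO (edgeR adjusted p = 0.00394). Smad5, a BMP Smad, rose by 9.58% in Tet2KO (0.00763) and fell by 12.5% in dKO against Tet2KO (0.0006). Smad2 averaged 62.5 ± 2.6 (WT) and 66.4 ± 3.5 CPM (Tet2KO) and did not pass (0.244). In Id1KO against WT 1 gene passed, Bmpr2, which fell by 15.2% (0.00136). Bmpr2, a BMP receptor gene named after its value was seen, was also the 1 gene of the 18 that passed in dKO against Id1KO (28.1% higher, 1.27e-05). Of all genes, 15% passed in Id1KO against WT and 19.3% in dKO against Id1KO. In dKO against WT 1 of the 18 rose and 2 fell, beside 10.2% and 8.97% of all genes.

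The remaining helix-loop-helix genes were taken in 2 lists. In the Myc and Max network, 13 of 13 genes were tested. In Tet2KO against WT 6 rose and 2 fell, where 16.6% and 16.2% of all genes did. Myc was at 241 ± 9.3 CPM (WT), 224 ± 1.9 (Tet2KO), 259 ± 7 (Id1KO) and 248 ± 10 (dKO). It fell by 7% in Tet2KO against WT (edgeR adjusted p = 0.0211) and was 10.4% higher in dKO than in Tet2KO (0.00383). Mga rose by 13.3% in Tet2KO (0.000118) and Mxd4, which encodes a Myc antagonist, by 14.1% (0.0005). Of the 35 other helix-loop-helix genes 19 were tested. In Tet2KO against WT 4 were higher and 1 lower, beside 16.6% and 16.2% of all genes. Srebf1, a regulator of lipid synthesis, fell by 13.7% in Tet2KO (0.00221) and Srebf2, of sterol synthesis, rose by 11.9% (0.0187), while Usf2 was at 76.1 ± 1.4 and 80.8 ± 2.5 CPM and did not pass (0.0536).

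The genes most like Id1 in log2 CPM over the 12 libraries, among 9752 genes with a mean of at least 5 CPM, were Etv3 (Pearson r 0.946), Ifitm1 (0.933) and Ddx3y (0.93). The libraries of a genotype form clusters, so these values describe the 4 labels more than 12 independent points, and no p is given. Etv3, which encodes an Ets family repressor, was at 33.3 CPM (WT), 40.7 (Tet2KO), 39.2 (Id1KO) and 38.6 (dKO). Ifitm1, an interferon-inducible gene, was at 22 CPM (WT), 45.7 (Tet2KO), 40.8 (Id1KO) and 52.4 (dKO). Ddx3y, a gene of the Y chromosome, was at 48.9 ± 2.5 CPM (WT), 87.7 ± 3.4 (Tet2KO), 93.4 ± 4.5 (Id1KO) and 82.1 ± 3 (dKO). Xist, the RNA of the inactive X, was looked up after these values were seen and was highest in WT, at 262 ± 10 CPM (WT), 10.8 ± 1.1 (Tet2KO), 64.9 ± 4.3 (Id1KO) and 16.7 ± 0.36 (dKO). Ddx3y and Xist thus separated the WT libraries from the other 9, as Id1 did, and the part of the animals' sex in the Id1 result was not tested.

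The genes most like Tal1 by the same measure were Mns1 (r 0.978), Fads2 (0.977) and Mtfp1 (0.975). Mns1 was at 84.6 CPM (WT), 60.7 (Tet2KO), 92.7 (Id1KO) and 83.2 (dKO), and Fads2 at 52.8, 43.4, 59.6 and 52.5 CPM in that order. All 3 were lowest in Tet2KO and highest in Id1KO, as Tal1 was.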

How the data were processed

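The values are estimated counts per gene in the table the authors deposited, made with STAR and RSEM on mm10, per the submitters' processing notes. Versions and the strand setting are not given in the sources used here. The kit was a stranded total RNA kit, per the labels. Of the values, 5.06% were not whole, and all were rounded. Gene identifiers matched GENCODE M21 (GRCm38), the source of positions and exonic lengths.

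In R 4.3.3, edgeR 4.0.16 filtered genes (filterByExpr, minimum count 10), applied TMM scaling and fitted the 12 libraries in 1 model with a coefficient for each genotype (two-sided quasi-likelihood F-tests). Adjustment was by the Benjamini-Hochberg method over 14346 genes, with a threshold of 0.05. SEs are the absolute log2 fold change over the square root of F. The steps were tested on simulated data. Look-alike sequence was sought with blast 2.17.0 at 95% identity over at least 100 bp. Promoter sequences are from RefSeq (GRCm38.p6). Python 3.11.15 and matplotlib 3.10.9 were used for tables and figures.

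Libraries of a genotype differed by more than sampling noise in every pair and entered as 3 replicates. Depth was 15706407 to 19959183 estimated counts per library. Sequenced PCR copies are not independent molecules, so intervals on counts cover counting error only.

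The genes and the gene lists were chosen with earlier results of these data known, so the lists are no independent evidence. Named by rule were the 10 genes and Tet2, the 3 most abundant tested genes of each list, any list gene with a called change of at least 2-fold, and the 3 genes most like Id1 and Tal1, gene models left out. An item that this rule names is not reported here. Alternatives were RLE and upper-quartile scaling, no or a stricter filter, a replicate block, only the libraries compared, leaving out each library, DESeq2 1.42.0, and libraries summed per genotype. The counts of the lists under these settings, and the Id to E protein ratio without each library, were added after seeing the data.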

Additional observations from a re-analysis of the deposited data

Results flagged for a closer look

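The difference of Id1 between Id1KO and WT was not the difference between dKO and Tet2KO. Id1 was 2.69-fold higher in Id1KO than in WT, and 1.02-fold in dKO relative to Tet2KO. The test of the difference between these changes gave a log2 interaction of -1.40 ± 0.23 SE (edgeR adjusted p = 0.000301, 3 libraries per label). All 3 WT libraries lay below the other 9. These values rest on 24 to 34 counts per WT library.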

How the results depend on the processing

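Of 335 alternative values of calls on the 9 genes, 292 kept their direction and side of the threshold, 43 lost the call and none reversed. Outside the fit on summed libraries, the calls of Id1, Tal1 and Tcf4, and those of Ldb1, were kept in every alternative run. With the libraries summed per genotype and additive effects, 4 contrasts could be fitted and each called 0 of the 9 genes with edgeR (2, 2, 1 and 1 at an unadjusted p under 0.05). DESeq2 on the 12 libraries called 5, 2, 2 and 2 in Tet2KO against WT, dKO against Id1KO, Id1KO against WT and dKO against Tet2KO. The summed fit has 4 samples and called 232 genes in all for the Tet2 labels and 7 for the Id1 labels. Its values for Id1 were 0.63 (adjusted p = 0.393) for the Tet2 labels and 0.68 (0.519) for the Id1 labels. DESeq2 called 1695 genes in dKO against Id1KO, 1220 in Id1KO against WT, 2503 in dKO against Tet2KO, 1640 in dKO against WT and 1180 for the interaction, beside 2762, 2156, 3793, 2754 and 2078 with edgeR.

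Leaving out single libraries gave 4 to 6 called genes of the 9 in Tet2KO against WT, 2 to 3 in dKO against Id1KO, 2 to 2 in Id1KO against WT, 2 to 3 in dKO against Tet2KO, 1 to 3 in dKO against WT and 1 to 3 for the interaction, which was 2 with no filter. The Id to E protein ratio ran from 0.0896 to 0.0971 in WT, 0.142 to 0.147 in Tet2KO, 0.139 to 0.154 in Id1KO and 0.129 to 0.139 in dKO. With longest transcripts it was 0.0682, 0.0971, 0.102 and 0.0915, and without Id1 0.0663, 0.0693, 0.0705 and 0.0621, as the construction of each fixes.

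Signs turned for uncalled log2 values, and for no called one. The summed fit gives both contrasts of a label 1 value, and the turned ones were Id1 0.6338, Id2 0.0049 and Tcf3 -0.0058 in dKO against Id1KO, Id2 -0.0227 in Id1KO against WT, and Tcf3 -0.0014 and Lmo2 -0.0238 in dKO against Tet2KO. With no filter it was the interaction of Tcf12, 0.0065. Leaving out single libraries, the ranges were -0.0739 to 0.0907 for Id1 in dKO against Id1KO and -0.0376 to 0.1272 in dKO against Tet2KO, -0.0062 to 0.1138 for Id2 in Id1KO against WT and -0.1265 to 0.0371 in dKO against WT, -0.0631 to 0.0059 for Ldb1, -0.0303 to 0.0505 for Lyl1 and -0.0497 to 0.0616 for Tcf3 in dKO against WT, -0.0156 to 0.0378 for Lmo2 and -0.0018 to 0.0607 for Tcf12 in dKO against Tet2KO, and for the interaction -0.0668 to 0.0311 for Lyl1, -0.0314 to 0.0312 for Tcf12 and -0.0477 to 0.0211 for Tcf4. The cause was not tested.

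The labels do not say that the title suffixes, read as replicate numbers, pair the libraries. Of 18 same-number correlations of deviations 1 was over 0.1 (median 0.0264), too few to treat them as pairs here. As a hint from the data the other way, 7 of 12 libraries correlated best with their own number. A fit with a replicate block called 6, 2, 2, 2, 2 and 1 of the 9 genes in Tet2KO against WT, dKO against Id1KO, Id1KO against WT, dKO against Tet2KO, dKO against WT and the interaction, with Tcf12 in dKO against Id1KO (adjusted p = 0.0578) and Lmo2 in dKO against WT (0.0546) losing their calls. Id1 rests on few counts, and Id3 could not be tested at this depth.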
